A study of Homo sapiens with 12 samples.

Results

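Perifosine given alone was compared with no drug in cells of HDLM-2, a human line established from Hodgkin lymphoma. The members were 6 of the 12 arrays of the study, chosen by their sample titles. They comprised 3 arrays of cells kept for 24 h without drug (control A, B and C) and 3 of cells kept for 24 h with 10 µM perifosine (perifosine A, B and C). The other 6 arrays were of cells given 5 µM sorafenib, a kinase inhibitor, alone or with 10 µM perifosine for 24 h. They served to estimate the spread between arrays and to measure the perifosine difference a second time, on a background of sorafenib. All samples came from 1 cell line in culture, and nothing in the labels says whether the 3 samples of a group were grown apart. The p-values are therefore relative to the differences among these samples, and those may be technical. Of 48803 probes per array, 25354 passed a filter on dim probes, and those with a gene symbol covered 13639 genes.

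Perifosine is an alkylphospholipid, a lipid-like molecule that enters membranes and inhibits the AKT kinase, which is held at the membrane through its pleckstrin homology domain. Cells sense membrane cholesterol through SCAP, INSIG and the transcription factor SREBP-2. When sterol in the endoplasmic reticulum is low, SCAP carries SREBP-2 to the Golgi and genes of cholesterol synthesis are switched on, whereas the LXR receptors switch on genes of cholesterol efflux when sterols are plentiful. The transcription factor ATF4 switches on amino acid synthesis and transport when amino acids are short, and NF-kB, which is constantly active in Hodgkin cells, drives survival and chemokine genes.

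After perifosine, 0 of 13639 genes passed an adjusted p of 0.05 (limma, Benjamini-Hochberg over all genes; 0% called). The smallest adjusted p was 0.99, so the unadjusted p-values printed below for single genes only describe how large a difference was against the spread between arrays. An unadjusted p under 0.05 was reached by 551 genes (4.04% of those tested), of which 273 (2.00%) had a positive change and 278 (2.04%) a negative one. The signal lay above all 3 control arrays on all 3 perifosine arrays for 582 genes (4.27%) and below them for 590 (4.33%). Of 6779 probes without a single gene symbol, 0 passed and 275 (4.06%) had an unadjusted p under 0.05. In all, 49.7% of genes had a change above 0 and the median change was -0.001 on the log2 scale. Every change below is the mean log2 signal on the perifosine arrays minus that on the control arrays, given with its standard error, and every group has 3 arrays.

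On the 12 arrays, 21949 to 22120 probes lay above background and the median deposited signal was 216.4 to 216.6. The small number of arrays limited the precision. Of 8 Hodgkin markers, 6 were above background on all 6 control and perifosine arrays, among them the chemokine gene CCL17 (signal 20520 to 30145), BATF3 (21480 to 28954) and TNFRSF8, which encodes CD30 (432 to 601). IL13 was above background on none of them. Of 5 listed markers each of other cell types, 1 of B cells (MS4A1, signal 250 to 319), 2 of T cells (CD2, 11926 to 14447, and LCK, 235 to 275) and 3 of myeloid cells were above background on all 6 arrays. The myeloid ones were CD68 (613 to 929), CSF1R (436 to 623) and LYZ (236 to 252). Of 5 fibroblast and endothelial markers, PECAM1 was (309 to 419). PAX5 of B cells, MPO of myeloid cells, DCN and VWF were above background on none. In cultured cells measured in bulk, fewer cells of a type and less RNA per cell cannot be told apart.

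Of the 12 arrays, perifosine B and sorafenib C lay furthest from their group means, with root mean square deviations of 0.222 and 0.212 on the log2 scale against 0.151 to 0.181 on the other 10. Across genes their deviations correlated at 0.387, although they belong to different groups. IRF1, SCAP and VEGFA had their 2 lowest signals of the 12 arrays there, and the sterol gene IDI1 had its highest signal on sorafenib C and its second highest on perifosine B. Values without these 2 arrays are given below for the main lists and for single genes that 1 array decided. Without them, 52.5% of genes had a change above 0.

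The genes of sterol synthesis and uptake had small, mostly positive changes. Of 28 listed genes, 23 were tested, and the others are not analysed here. None of the 23 passed the test, 19 had a change above 0 (49.7% of all genes did), and their median change was 0.159 (-0.001 for all genes). The mean log2 signal of the 23 genes, set against its mean over the controls, was 0.00, -0.01 and 0.01 on control A, B and C. On perifosine A, B and C it was 0.089, 0.15 and 0.098. The control and perifosine arrays did not overlap in this mean. The spread within the controls was small beside the difference, but sorafenib A, B and C ran from 0.019 to 0.131. The list was chosen with earlier results of these data known, so the separation is only a description. With 3 arrays against 3, even a full separation could give an exact permutation test no p below 0.1. Without perifosine B and sorafenib C, 16 of the 23 were above 0 (52.5% of all genes) and the median was 0.132.

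**Figure D1:**
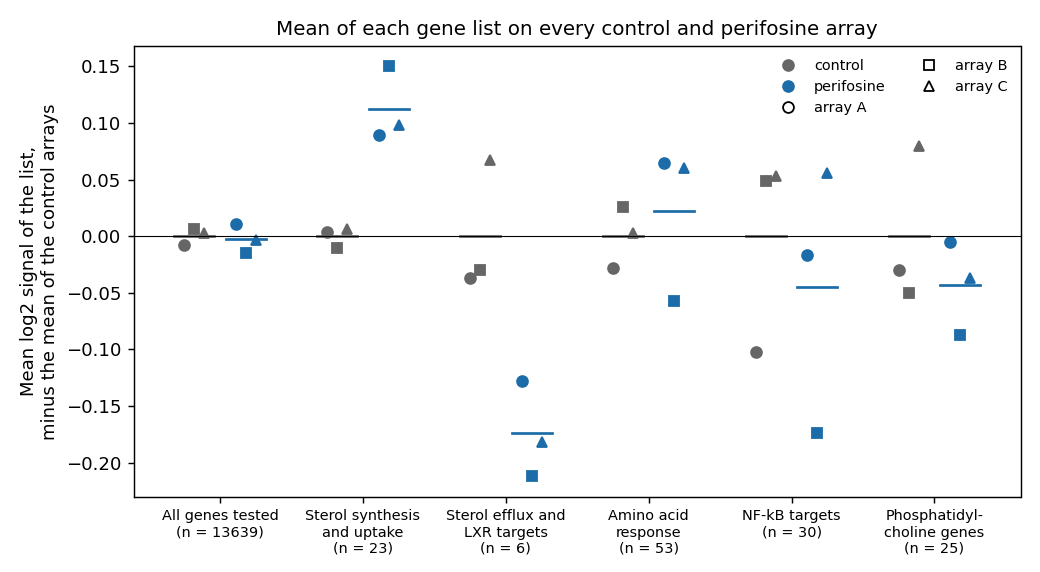
Mean log2 signal of each gene list on every control (grey) and perifosine (blue) array, minus the mean of the control arrays. Points are arrays, with the shape giving A, B or C, lines are group means, and n is the number of genes. The sterol synthesis points lie above all controls and the sterol efflux points below all controls, while perifosine B is the lowest point of the amino acid and NF-kB lists.

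Among the 7 tested enzymes of the mevalonate arm, which makes the isoprenoid precursor of sterols, 6 had a change above 0, with a median of 0.167. HMGCS1, which makes HMG-CoA at the start of the pathway, had log2 signals of 10.75, 10.85 and 10.79 on control A, B and C and of 11.02, 10.94 and 11.05 on perifosine A, B and C. All 3 perifosine arrays lay above the controls, and the change was 0.21 ± 0.11 (95% interval -0.03 to 0.44; unadjusted p = 0.0794). Mevalonate kinase (MVK), mevalonate diphosphate decarboxylase (MVD), the thiolase ACAT2 and farnesyl diphosphate synthase (FDPS) had changes of 0.17, 0.20, 0.17 and 0.14, each with overlapping groups. The exception in sign was PMVK, phosphomevalonate kinase, with a change of -0.28 ± 0.14 (unadjusted p = 0.0651), for which all 3 perifosine arrays lay below the controls.

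In the sterol arm, from squalene to cholesterol, 9 of 10 tested enzymes had a change above 0, with a median of 0.147, and 6 did without perifosine B. LSS, lanosterol synthase, closes squalene epoxide into the first sterol. Its log2 signal was 9.84, 9.94 and 9.74 on control A, B and C and 10.25, 10.08 and 10.19 on perifosine A, B and C, so that the groups did not overlap. The change was 0.33 ± 0.11, or 1.26-fold (95% interval 0.09 to 0.58; unadjusted p = 0.012, limma adjusted p = 0.99). The other 2 passing probes of LSS had changes of 0.17 and 0.29, the latter on a probe above background on no control array.

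MSMO1, a sterol methyl oxidase, had log2 signals of 11.61, 11.71 and 11.61 in the controls and of 11.77, 12.15 and 11.78 on perifosine A, B and C. All 3 lay above the controls, perifosine B by most, and the change was 0.25 ± 0.15 (unadjusted p = 0.11; 0.13 without perifosine B). The dimmer passing probes of MSMO1 had changes of 0.20 and -0.25, the latter on a probe above background on no perifosine array. CYP51A1, lanosterol demethylase, read 9.34, 9.34 and 9.26 in the controls against 9.25, 10.13 and 9.12 on perifosine A, B and C. Its change of 0.18 ± 0.26 came from perifosine B alone and was -0.13 without it. DHCR7, the last reductase of the pathway, and SQLE, squalene epoxidase, had changes of 0.19 and 0.14 with overlapping groups.

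Of the regulators, INSIG1, the endoplasmic reticulum protein that holds SCAP back and is itself an SREBP target, had log2 signals of 11.51, 11.40 and 11.63 on control A, B and C. On perifosine A, B and C they were 11.82, 11.81 and 11.68, all above the controls. The change was 0.25 ± 0.10 (95% interval 0.03 to 0.48; unadjusted p = 0.0289), and the dimmer passing probe gave 0.21. INSIG2, its relative, had a change of 0.19 ± 0.11. SREBF2, which encodes SREBP-2, had a change of 0.33 with a standard error of 0.27, since the controls ran from 7.44 to 8.06 and the perifosine arrays from 7.64 to 8.27. SCAP read 11.38, 11.20 and 11.63 in the controls and 11.30, 10.56 and 11.56 on perifosine A, B and C. Its change was -0.26 ± 0.21, and 0.03 without perifosine B.

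For uptake and transport, NPC1, which exports cholesterol from lysosomes, had a change of 0.16 ± 0.11, and STARD4, a carrier of cholesterol between membranes, one of -0.12 ± 0.22. Their groups overlapped. Of the 6 genes of the list with more than 1 passing probe, 5 had probes that all gave the same sign.

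Promoters of these genes are shown because SREBP sites, where present, act together with CCAAT boxes, which bind NF-Y. The promoter table (RefSeq, GRCh38.p14) spans 250 bases before to 50 after each start and matched 21 of the 23 genes, with 27 promoters. A CCAAT box (CCAAT, both strands) was in 18 of the 27 (66.7%), against 34.6% of all 35116 promoters, and a sterol regulatory element (TCACNCCAC, both strands) was in 1 (3.7%, against 1.13%), that of SREBF2. Capitals mark the match, and ATTGG is CCAAT on the other strand. The windows are chr21:46228910-46228934 on the minus strand for LSS, 150 bases before the start, and chr5:43313498-43313522 on the minus strand for HMGCS1, 100 before. They are chr7:155297698-155297722 on the plus strand for INSIG1, 170 before, chr4:165327583-165327607 on the plus strand for MSMO1, 76 before, and chr22:41832962-41832990 on the plus strand for SREBF2, 133 before. A match is only a description of these letters.
LSS: cggcgctctgATTGGttgcgtgggc
HMGCS1: accggccgcgATTGGctgtgggagc
INSIG1: ccggcctcccATTGGttgcggccgc
MSMO1: actgcacagaCCAATcaccgcgccg
SREBF2: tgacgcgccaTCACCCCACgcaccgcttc

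Genes of sterol efflux and LXR targets had mostly negative changes. Of 6 tested of 8 listed, 0 passed, 5 had a change below 0, and the median was -0.241. Without perifosine B and sorafenib C all 6 were below 0, with a median of -0.145. The mean of the 6 genes, set against its mean over the controls, was -0.04, -0.03 and 0.07 on the controls and -0.13, -0.21 and -0.18 on perifosine A, B and C. The control and perifosine groups did not overlap in this mean. Within the other groups it ran from -0.22 to -0.028 on the sorafenib arrays and from -0.285 to -0.072 on the combination arrays.

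MYLIP, a ubiquitin ligase switched on by LXR, had log2 signals of 11.15, 11.14 and 11.07 in the controls and of 11.01, 10.65 and 10.76 on perifosine A, B and C. All 3 lay below the controls, and the change was -0.32 ± 0.12 (95% interval -0.58 to -0.05; unadjusted p = 0.0221). ABCG1 and ABCA1, transporters that pass cholesterol to lipoproteins, had changes of -0.31 ± 0.14 and -0.22 ± 0.21 with overlapping groups. The 5 passing probes of ABCG1 did not all have the same sign, with changes from -0.58 to 0.06. LPCAT3, an acyltransferase that puts polyunsaturated chains on phosphatidylcholine, had a change of -0.26 ± 0.16. NR1H3, which encodes LXR alpha, had one of -0.03 ± 0.14, and SOAT1, which esterifies cholesterol, one of 0.09 ± 0.15 (-0.08 without perifosine B).

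Fatty acid synthesis genes were divided. Of 13 tested, 9 had a change above 0, with a median of 0.052. SREBF1, which encodes the lipogenic SREBP-1 and is an LXR target, read 11.39, 11.20 and 11.40 in the controls and 11.11, 10.91 and 11.07 on perifosine A, B and C, all below the controls. Its change was -0.30 ± 0.11 (unadjusted p = 0.0194), and the other 2 passing probes had changes of -0.16 and -0.23. ELOVL5, an elongase of polyunsaturated chains, had a change of 0.32 ± 0.18 and FASN, fatty acid synthase, one of -0.16 ± 0.14.

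**Figure D2:**
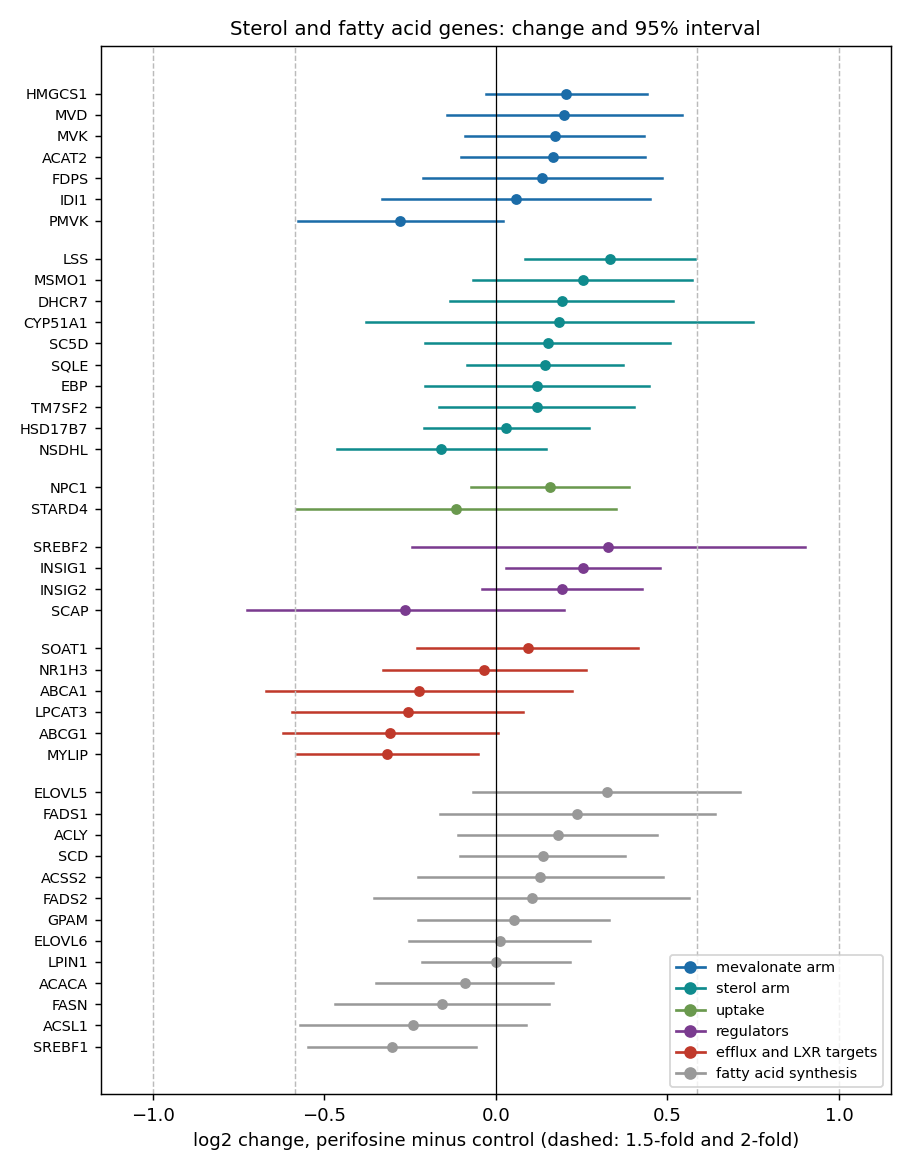
Log2 change, perifosine minus control, of every tested sterol and fatty acid gene, by role. Points are the limma changes, bars their 95% intervals, and dashed lines mark 1.5-fold and 2-fold. Most synthesis genes lie to the right of 0 and most efflux genes to the left, and the intervals of LSS, INSIG1, MYLIP and SREBF1 do not cross 0.

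Phosphatidylcholine is the lipid that perifosine resembles. Of 25 tested genes of its synthesis and remodelling, 0 passed and 10 had a change above 0, with a median of -0.044 (0.016 without perifosine B). LPCAT1, which remakes phosphatidylcholine from its lyso form, read 12.11, 11.78 and 11.98 in the controls and 11.67, 11.60 and 11.66 on perifosine A, B and C, all below the controls. Its change was -0.31 ± 0.13 (unadjusted p = 0.0365). LPCAT4, of the same activity, had a change of -0.26 ± 0.10 (unadjusted p = 0.0257), also with groups that did not overlap. PCYT1A, the rate-limiting enzyme of its synthesis, had a change of -0.17 ± 0.20, and CHKA, choline kinase, one of -0.03 ± 0.14.

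The amino acid response genes had changes of both signs, in shares that depended on perifosine B. Of 53 tested of 58 listed, 0 passed, 31 had a change above 0, and the median was 0.024. An unadjusted p under 0.05 was reached by 5 with a positive change (2.00% of all genes) and 1 with a negative change (2.04%). All 3 perifosine arrays lay above all controls for 8 of the 53 (4.27% of all genes) and below them for 2 (4.33%). Of 14 of these genes with more than 1 passing probe, 6 had probes that all gave the same sign. Without perifosine B and sorafenib C, 39 of 53 were above 0 (52.5% of all genes) and the median was 0.081. The mean of the list was -0.03, 0.03 and 0.00 on control A, B and C, 0.07 and 0.06 on perifosine A and C, and -0.06 on perifosine B, below all controls.

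Among the 12 synthesis enzymes, 8 had a change above 0, with a median of 0.085. Their mean was -0.075, 0.058 and 0.017 on control A, B and C and 0.085, 0.064 and 0.108 on perifosine A, B and C. CTH, which makes cysteine from cystathionine, had log2 signals of 10.18, 10.41 and 10.28 on control A, B and C and of 10.80, 10.96 and 10.54 on perifosine A, B and C. The groups did not overlap, and the change was 0.48 ± 0.13, or 1.39-fold (95% interval 0.21 to 0.75; unadjusted p = 0.00225, limma adjusted p = 0.99). All 3 passing probes of CTH had positive changes, the other 2 of 0.37 and 0.34.

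PSPH, the last enzyme of serine synthesis, had log2 signals of 11.44, 11.44 and 11.70 in the controls and of 11.88, 11.75 and 11.80 on perifosine A, B and C, a change of 0.28 ± 0.12 (unadjusted p = 0.0387). PSAT1, which acts before it, read 11.90, 11.88 and 11.91 in the controls and 12.05, 12.06 and 12.10 on the perifosine arrays. Neither gene's groups overlapped, although the change of PSAT1 was only 0.17 ± 0.10 (unadjusted p = 0.0943). ASNS, asparagine synthetase, had a change of 0.20 ± 0.11, with perifosine B inside the control range. MTHFD2 and SHMT2, the mitochondrial folate enzymes, had changes of -0.09 ± 0.10 and -0.02 ± 0.12.

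Of the 10 transporters, 7 had a change above 0, with a median of 0.041. SLC1A5, the glutamine transporter ASCT2, had log2 signals of 11.65, 11.48 and 11.53 in the controls and of 11.88, 12.03 and 11.73 on perifosine A, B and C, all above the controls. Its change was 0.32 ± 0.12 (95% interval 0.07 to 0.58; unadjusted p = 0.0174). SLC7A11, the cystine transporter xCT, had a change of 0.31 ± 0.12 (unadjusted p = 0.0268) with perifosine A inside the control range. The probe of SLC6A9, a glycine transporter, was above background on all 3 controls and on 0 of 3 perifosine arrays, so its level there is only a bound. Its log2 means of 6.83 and 6.55 (unadjusted p = 0.0175) amount to a control signal at least 1.09-fold higher, against the lowest signal above background on each perifosine array. The other passing probe of SLC6A9, above background on 0 control arrays and 1 perifosine array, had a change of 0.33, so the probes disagreed in sign. The 12 tRNA synthetase genes had a median change of -0.005, from -0.25 for VARS1 to 0.16 for NARS1. Without perifosine B and sorafenib C, the medians were 0.136 for the synthesis enzymes (9 of 12 above 0), 0.108 for the transporters (7 of 10) and 0.033 for the tRNA synthetases (8 of 12).

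Regulators and stress outputs had a median change of 0.013, with 11 of 19 above 0 (0.074 and 15 of 19 without perifosine B and sorafenib C). ATF3, a stress-induced transcription factor, had log2 signals of 11.98, 12.10 and 12.07 in the controls and of 12.23, 12.45 and 12.36 on perifosine A, B and C. The groups did not overlap, and the change was 0.29 ± 0.11 (unadjusted p = 0.0166), while the dimmer probe of ATF3 gave 0.09. ATF4 itself had a change of 0.06 ± 0.11 and DDIT3, which encodes CHOP, one of 0.04 ± 0.13.

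TRIB3, a pseudokinase that binds AKT and is an ATF4 and CHOP target, read 9.48, 9.52 and 9.63 on control A, B and C and 9.50, 8.88 and 9.41 on perifosine A, B and C. Perifosine B lay below the rest and perifosine A inside the control range. The change was -0.28 ± 0.15, or 0.826-fold (95% interval -0.60 to 0.05; unadjusted p = 0.0913), and -0.09 without perifosine B. CHAC1, which degrades glutathione, had a change of -0.35 ± 0.19 (-0.12 without perifosine B), and VEGFA, the angiogenic factor, one of -0.28 ± 0.36 (0.08 without it).

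The ATF4 element of these promoters is shown for members with changes of either sign. A C/EBP-ATF response element (TGATGNAA, both strands) was in 18 of 68 promoters of 42 matched genes (26.5%), against 3.62% of all promoters. Capitals mark the match. The windows (GRCh38.p14, RefSeq) are chr7:97872459-97872486 on the minus strand for ASNS, 68 bases before the start, and chr19:46784894-46784921 on the minus strand for SLC1A5, 97 before. They are chr1:212565206-212565233 on the plus strand for ATF3, 191 before, and chr15:40953252-40953279 on the plus strand for CHAC1, 209 before, read there on the other strand.
ASNS: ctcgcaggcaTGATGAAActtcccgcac
SLC1A5: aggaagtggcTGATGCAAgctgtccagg
ATF3: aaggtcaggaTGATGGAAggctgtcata
CHAC1: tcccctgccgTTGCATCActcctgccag

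**Figure D3:**
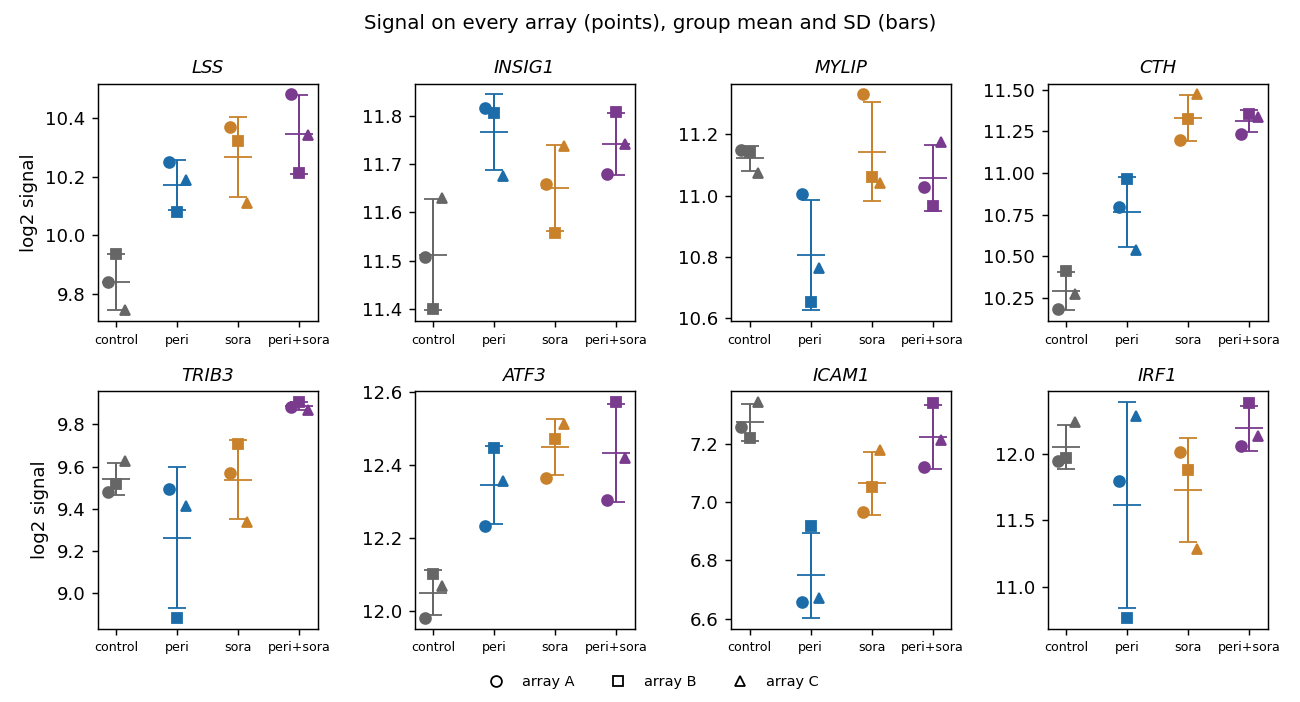
Log2 signal of 8 genes on all 12 arrays, in control, perifosine (peri), sorafenib (sora) and combination (peri+sora) cells. Points are arrays, with the shape giving A, B or C, and bars the group mean and SD. LSS, INSIG1, CTH and ATF3 lie above the controls on all 3 perifosine arrays, MYLIP and ICAM1 below, and TRIB3 and IRF1 are low on perifosine B.

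NF-kB pathway genes were centred on 0. Of 50 tested of 57 listed, 0 passed, 23 had a change above 0, and the median was -0.012 (30 of 50 and 0.017 without perifosine B and sorafenib C). The 10 subunits and kinases had a median change of 0.00, with changes of 0.02 for NFKB1, which encodes the p50 subunit, 0.00 for RELA, which encodes p65, and -0.22 ± 0.10 for MAP3K14, the kinase of the non-canonical branch (unadjusted p = 0.0608). The 95% intervals of all 10 lay within 1.5-fold. The 10 inhibitors had a median of -0.002. NFKBIA, which encodes the inhibitor IkB alpha and is an NF-kB target, had a change of -0.16 ± 0.13, and TNFAIP3, the deubiquitinase A20, one of 0.04 ± 0.11.

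Of the 30 targets, 13 had a change above 0 and the median was -0.029 (18 of 30 and 0.017 without perifosine B and sorafenib C). The mean over the targets ran from -0.10 to 0.05 on the controls and was -0.02, -0.17 and 0.06 on perifosine A, B and C. Perifosine B lay below the control range, and perifosine C just above it (0.056 against 0.053 on control C).

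ICAM1, an adhesion molecule, had the smallest p of the targets. Its log2 signal was 7.26, 7.22 and 7.34 on control A, B and C and 6.66, 6.92 and 6.67 on perifosine A, B and C. All 3 lay below the controls, and the change was -0.52 ± 0.11 (95% interval -0.77 to -0.28; unadjusted p = 0.000423, limma adjusted p = 0.99). The probe was dim, above background on 1 of 3 perifosine arrays, and the change was -0.27 without background correction.

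CD40, a TNF receptor family member, had log2 signals of 9.109, 9.107 and 9.198 in the controls and of 9.56, 9.36 and 9.46 on perifosine A, B and C. The groups did not overlap and the change was 0.32 ± 0.11 (unadjusted p = 0.0104), but the dimmer probe of CD40 had a change of -0.07. IRF1, an interferon-regulated transcription factor, read 11.94, 11.97 and 12.24 in the controls and 11.80, 10.77 and 12.28 on perifosine A, B and C. Its change was -0.44 ± 0.30, and -0.01 without perifosine B. The chemokine gene CCL22 had a change of 0.31 ± 0.19, and the survival genes BCL2A1, CFLAR and BCL2L1 had 0.25, 0.09 and 0.02. Of 17 NF-kB genes with more than 1 passing probe, 10 had probes that all gave the same sign.

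For comparison with these values, the kappa B site, searched as its 10-base consensus on both strands, was in 29 of 71 NF-kB pathway promoters of 43 matched genes (40.8%), against 11.3% of all promoters. The windows shown are of a target decided by 1 array and of a feedback inhibitor, both in GRCh38.p14 from RefSeq and with the match in capitals. They are chr5:132490804-132490833 on the minus strand for IRF1, 50 bases before the start, and chr14:35404811-35404840 on the minus strand for NFKBIA, 81 before.
IRF1: ggccagggctGGGGAATCCCgctaagtgtt
NFKBIA: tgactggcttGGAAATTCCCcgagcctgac

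For the target pathway of the drug, 22 PI3K, AKT and mTOR genes were tested, of which 0 passed and 9 had a change above 0, with a median of -0.016. AKT1 had a change of 0.02 ± 0.13 at a log2 signal of 14.25 in the controls. AKT2 read 8.857, 8.831 and 8.743 in the controls and 8.401, 8.111 and 8.679 on perifosine A, B and C, all below the controls, with a change of -0.41 ± 0.22 (unadjusted p = 0.0789). PHLPP2, a phosphatase that removes the activating phosphate of AKT, had a change of 0.33 ± 0.14 (unadjusted p = 0.0395), with overlapping groups. AKT keeps the FOXO transcription factors out of the nucleus. Of 23 FOXO factors and targets, 13 had a change above 0, with a median of 0.038. FOXO4 itself read 9.08, 9.29 and 9.26 in the controls and 9.53, 9.48 and 9.53 on perifosine A, B and C, all above the controls (change 0.30 ± 0.10; unadjusted p = 0.0102). The targets TXNIP and CCNG2 had changes of -0.18 and 0.09. BCL2L11, which encodes the death protein BIM, had a change of -0.16 on its brightest probe and of 0.36 and 0.11 on the other 2 passing probes, so they disagreed in sign.

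Over all genes, the smallest unadjusted p belonged to MAGEA2, a cancer-testis antigen gene, with log2 means of 6.89 in the controls and 6.31 after perifosine (unadjusted p = 0.000345). It was above background on 0 of 3 perifosine arrays, so the control signal was at least 1.13-fold higher. Of the 10 positive changes with the smallest p, 7 were of probes above background on no control array, among them SOX30, a testis transcription factor, at least 1.26-fold higher after perifosine (log2 means 6.34 and 7.04). Of the 10 negative changes, 4 were of probes above background on no perifosine array.

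Only 3 of these 20 genes were above background on all 6 arrays. PIK3C2B, a class II PI3-kinase, read 7.797, 8.003 and 7.853 in the controls and 8.25, 8.41 and 8.30 on perifosine A, B and C (change 0.43 ± 0.10; unadjusted p = 0.000777). RRN3, an initiation factor of RNA polymerase I, read 9.66, 9.80 and 9.88 in the controls and 9.37, 9.32 and 9.23 on perifosine A, B and C (change -0.47 ± 0.11; unadjusted p = 0.000763). EIF3A, a subunit of a translation initiation factor, had a change of -0.44 ± 0.11 (unadjusted p = 0.00167) from a control mean of 12.20. Of the 551 genes with an unadjusted p under 0.05, 298 were above background on all 6 arrays.

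The perifosine difference measured on the sorafenib background, combination minus sorafenib, shared no array with the one above. It had 0 genes past an adjusted p of 0.05 (limma; smallest adjusted p = 0.436) and 831 with an unadjusted p under 0.05 (6.09%). Across 13639 genes, which are not independent and shared 1 normalization, the 2 differences correlated at -0.25 and had the same sign in 39.37%. Without perifosine B and sorafenib C these were -0.105 and 44.63%. In both differences an unadjusted p under 0.05 was reached with the same sign by 17 genes and with opposite signs by 59. The interaction, a test of whether the perifosine difference itself differed between backgrounds, had 0 genes called (limma; smallest adjusted p = 0.384) and 1041 with an unadjusted p under 0.05 (7.63%).

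Of the sterol synthesis genes, 14 of 23 had a change above 0 in combination minus sorafenib (51.4% of all genes), with a median of 0.038. Without perifosine B and sorafenib C, 16 were above 0 and the median was 0.067. LSS had a change there of 0.08 (interaction unadjusted p = 0.138), which was -0.001 without perifosine B and sorafenib C. HMGCS1 had 0.20 and INSIG1 0.09. The mean of the list, against the untreated controls, was 0.02, 0.13 and 0.13 on sorafenib A, B and C and 0.18, 0.12 and 0.21 on combination A, B and C, so that these groups overlapped. For the efflux list, the median was -0.046, with 2 of 6 genes above 0, and ABCG1 had a change of -0.32, close to its -0.31 without sorafenib.

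CTH had a change of -0.02 in combination minus sorafenib (0.05 without perifosine B and sorafenib C), against 0.48 without sorafenib (interaction unadjusted p = 0.0149, limma adjusted p = 0.607). Its log2 signal was already 11.20, 11.33 and 11.47 on the sorafenib arrays, above every perifosine array. TRIB3 had a change of 0.35 there, with combination A, B and C at 9.89, 9.91 and 9.87, against -0.28 without sorafenib (interaction unadjusted p = 0.012, limma adjusted p = 0.599). ICAM1 had 0.16 against -0.52 (interaction unadjusted p = 0.000828, limma adjusted p = 0.581). The interaction reuses the control and perifosine arrays. These genes are on lists chosen with earlier results known, and ICAM1 had the smallest p of the NF-kB targets there. Their interaction p-values are therefore not independent of that choice.

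**Figure D4:**
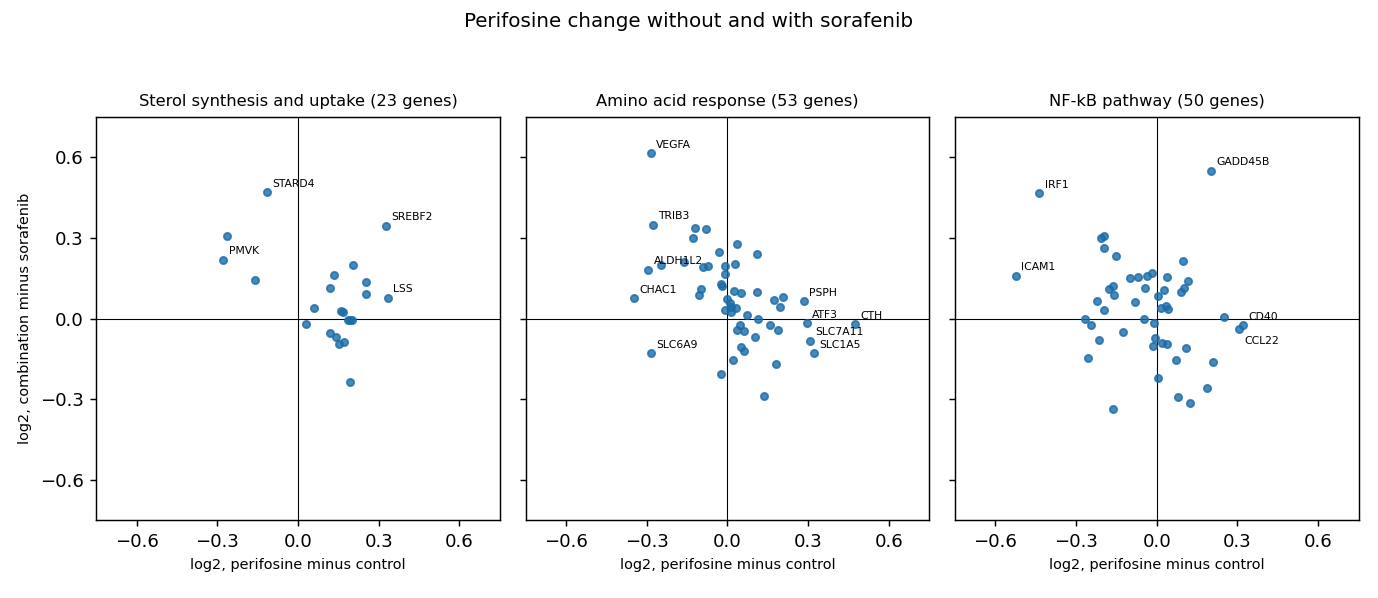
Log2 change of each tested list member, perifosine minus control (horizontal) against combination minus sorafenib (vertical). The sterol points lie mostly right of 0 with both signs on the vertical axis, CTH lies far to the right but near 0 on the vertical axis, and TRIB3, IRF1 and ICAM1 lie left of 0 and above it.

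Averaged over both backgrounds, 6 arrays against 6, 0 genes passed (limma; smallest adjusted p = 1) and 459 had an unadjusted p under 0.05 (3.37%). Of the sterol synthesis genes, 20 of 23 had an average above 0 (51.2% of all genes), with a median of 0.093, which was 0.21 for LSS (unadjusted p = 0.0244). Amino acid genes had 42 of 53 above 0 with a median of 0.051, and NF-kB genes 25 of 50 with a median of 0.007. The average includes the perifosine minus control values, so it is not a second measurement. The sign was the same in both backgrounds for 10 of 23 sterol, 17 of 53 amino acid and 22 of 50 NF-kB genes. Over all genes that share was 39.37%. HILPDA, a lipid droplet protein, had an average change of -0.65 (unadjusted p = 0.00132). It read 8.88, 8.41 and 8.55 in the controls and 7.98, 8.34 and 7.28 on perifosine A, B and C, and had a change of -0.56 in combination minus sorafenib.

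The arrays gave bounds on the change in signal of single genes. These rest on the spread among these samples, which may be technical, so they may not hold for new cultures. The 95% interval of the change lay within 2-fold in either direction for 13519 of 13639 genes (99.1%) and within 1.5-fold for 11013 (80.7%). A gene's interval reached a median of 0.311 on the log2 scale to either side of its change. The bound depended on signal. Within 1.5-fold lay 59.92% of the dimmest 4546 genes, 87.9% of the middle 4546 and 94.41% of the brightest 4547. A more than 2-fold higher level stayed inside the interval for 46 genes and a more than 2-fold lower one for 74.

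These intervals hold for 1 gene at a time. With intervals widened by the Bonferroni rule to hold for all genes at once, 23.07% of genes were bounded within 2-fold and 94.42% within 4-fold. For the lists, all 23 sterol synthesis genes were bounded within 2-fold and 20 within 1.5-fold by the single-gene intervals. For NF-kB these counts were 49 and 40 of 50, IRF1 being the exception at 2-fold, and for the amino acid response 52 and 47 of 53, with VEGFA the exception. For CTH, the interval ended at 0.75 on the log2 scale and for LSS at 0.58, so a 2-fold higher level lay outside both single-gene intervals. The widened intervals ended at 1.435 for CTH and 1.201 for LSS and held a 2-fold higher level.

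**Figure D5:**
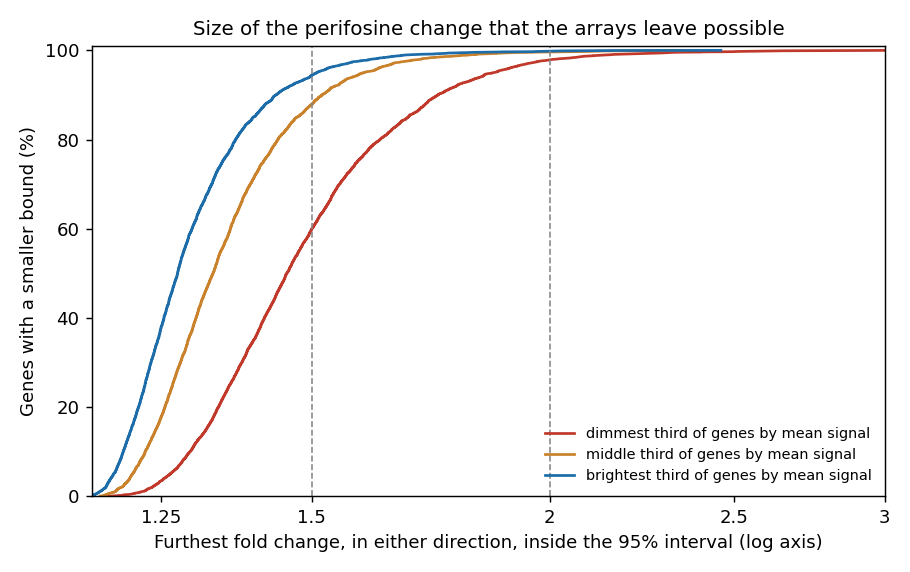
Share of genes (vertical, %) whose 95% interval stays within a given fold change in either direction (horizontal, log axis), for the dimmest 4546, middle 4546 and brightest 4547 genes by mean signal. Dashed lines mark 1.5-fold and 2-fold. At 1.5-fold the line of the dimmest genes reaches 59.92% and that of the brightest 94.41%, and at 2-fold all 3 lines are near 100%.

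Other pathways also had small changes, with no gene passing. Lists with medians near 0 were oxidative phosphorylation (0.006, 20 genes), mitosis (-0.005, 26 genes), DNA replication (-0.026, 28 genes), heat shock proteins (-0.031, 16 genes) and chaperones of the unfolded protein response (0.051, 19 genes). Medians further from 0 were those of T cell markers (0.098, 5 of 7 above 0) and MAPK pathway output (0.068, 10 of 16). The BCL2 family and death receptors had a median of -0.059, with 6 of 19 above 0. Averaged over both backgrounds, the T cell marker median was 0.136, against 0.093 for the sterol genes. The 12 CDK inhibitors and G1 cyclins had a median of -0.099, with 3 above 0, but their mean was -0.04 and 0.00 on perifosine A and C and -0.26 on perifosine B. The 22 interferon-stimulated genes had a median of -0.054 with 7 above 0 (-0.017 and 10 without perifosine B and sorafenib C), from -0.23 for IFIT3 to 0.34 for OAS3, both antiviral. Of the 17 Hodgkin cell molecules, 8 were above 0, with a median of -0.003, and CCL17 had a change of -0.22 ± 0.12.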

How the data were processed

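RNA of HDLM-2 cells was hybridised to Illumina arrays after biotin labelling, per the labels' protocols. The authors deposited processed intensity values, linear, 1 per probe and array (BeadStudio, per the submitters' processing notes). The sources used here do not say how they were normalized. Sorted values differed by at most 1.094% between arrays, so they already shared a distribution. A second table has 24 columns that could not be tied to samples and were left out.

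The deposited intensity values were corrected with normexp (offset 16), quantile normalized and set to log2. A probe was kept if above background (the upper 5% point of the dim signals) on at least 3 of 12 arrays, 25354 in all. The platform annotation gave 28098 probes 1 symbol, 13 several and 20692 none; 28059 matched an Entrez identifier in RefSeq. A gene took its brightest passing probe (3680 genes had several). Probes without 1 symbol formed a separate fit.

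A model of 4 group means was fitted to 12 arrays in limma (3.58.1, R 4.3.3) (13.1 degrees of freedom) with eBayes and Benjamini-Hochberg adjustment. It was tested on simulated data with independent noise and the same spread of a gene on every array. Arrays of unequal spread or with shared deviations, as perifosine B and sorafenib C had, were not simulated. The same-letter deviations of samples correlated at -0.24 to 0.205, so no pairing by letter was seen. With so few arrays this cannot exclude a pairing, and the labels name none.

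The members and the 28 gene lists (607 entries) were chosen with earlier results of these data known, so lists are described by counts and medians with no test. Genes named were LSS, CTH and TRIB3, any tested member of the 8 main lists, the highest and lowest member of other lists, the 10 smallest p in each direction, and the 5 smallest of the average and the interaction. Alternatives covered background correction, filter, probe choice, array weights, robust eBayes, the 6 arrays alone, the replicate block and leaving out each array.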

Additional observations from a re-analysis of the deposited data

How the results depend on the processing

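With each of 22 alternatives, 12 of them leaving out 1 array, the number of genes past an adjusted p of 0.05 (limma) was 0 for perifosine against control, as it was with each of 21 for the average over backgrounds and for the interaction. With 1 array left out, 13262 to 13548 genes were bounded within 2-fold and 9328 to 11304 within 1.5-fold, and the median change of the sterol genes ran from 0.12 to 0.184, of LSS from 0.285 to 0.38, of CTH from 0.378 to 0.59 and of TRIB3 from -0.393 to -0.086. The median of the NF-kB targets ran from -0.07 to 0.017, that of the amino acid response from -0.008 to 0.081 and that of the phosphatidylcholine genes from -0.072 to 0.016. Leaving out perifosine B alone, or with sorafenib C, moved the amino acid median to 0.081 and the phosphatidylcholine median to 0.016, and the cause was not tested. With the replicate letter as a block (pairing), 0 genes passed, 13513 were bounded within 2-fold, the sterol median was 0.159, and no call changed. Genes bounded within 1.5-fold numbered 11013 in the reported fit, 13428 without background correction and 9409 over genes above background on all 12 arrays. Intervals reached a median of 0.388 to either side in the dimmest 4546 genes, against 0.311 over all genes.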
